A study of Mus musculus with 8 samples.

Results

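Sox9-high nuclei are nuclei of alveolar epithelial cultures that held at least 5 Sox9 UMIs (unique molecular identifiers, each standing for 1 captured RNA molecule). They were picked among nuclei with at least 1000 UMIs, in the 2 of 4 libraries with the most Sox9 RNA, and with under 50 UMIs per 10000 of the airway secretory genes Scgb3a1 and Bpifa1 together. There were 311 of them among the 7168 nuclei with at least 1000 UMIs (7224 deposited), 197 in library C and 114 in library D. Each was compared with the nuclei of its own library that held 0 Sox9 UMIs and met the same airway limit (0-UMI nuclei), 2124 in library C and 1314 in library D. The nuclei were thus chosen by their measured counts of Sox9, Scgb3a1 and Bpifa1, so the values of these genes are a description.

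The cultures were mouse alveolarspheres, balls of cells grown without feeder cells or serum from type II alveolar epithelial cells (ATII) of young and old mice. An adeno-associated virus (serotype 9), given on day 9, brought in either Sox9 with Cre recombinase (genotype Sox9Cre, treatment Sox9 overexpression) or Cre alone (genotype Cre, control), and all groups then spent 4 days in medium that favours type I (ATI) cells. All groups also share the sort for the red reporter tdTomato. Every nucleus then gave an RNA profile and an ATAC profile of its open chromatin. The labels list 8 samples in 4 groups of 2 (Sox9Cre RNA, Sox9Cre ATAC, Cre RNA, Cre ATAC), but no label ties a library to a sample, a virus or a mouse's age, and the labels name neither strain nor sex. The pooled matrix therefore counts as 1 sample with no replicates, the comparison is between nuclei inside a library and not between viruses, and no p-value is given. Intervals below are exact Poisson or Clopper-Pearson 95% intervals and cover counting error only.

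SOX9 is a transcription factor of the SRY-box family. It marks the tip cells of the branching embryonic lung, from which alveolar cells descend, and it directs cartilage formation together with SOX5 and SOX6 by activating collagen and other matrix genes. ATII cells make surfactant and can turn into flat ATI cells through a keratin-rich transitional state, the route that the culture medium was chosen to favour.

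Sox9 RNA stood at 1.08 UMIs per 10000 in library C and 0.939 in library D, against 0.0147 in library A and 0.0142 in library B. The Sox9-high nuclei were 6.10% of library C (5.30 to 6.98) and 5.92% of library D (4.90 to 7.06), and they held 65.7% and 66.9% of their library's Sox9 UMIs. Library A had 1 nucleus with 5 or more Sox9 UMIs and library B had 0. Both rich libraries thus held nearly the same small share of such nuclei. The median count was 8 Sox9 UMIs per nucleus in library C and 9 in library D. Of the 311 nuclei, 183 held 5 to 9 Sox9 UMIs, 87 held 10 to 19 and 41 held 20 or more. The distribution had a long tail, since 1 nucleus of library C held 449 Sox9 UMIs, 15.9% of those in its group, and the next had 103. The highest count in library D was 82. At the threshold itself, 62 nuclei held exactly 5, where Sox9 stood at 3.38 (C) and 3.51 (D) per 10000, while nuclei with exactly 4 stood at 2.59 (C) and 2.76 (D).

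The Sox9-high nuclei were somewhat deeper than their comparison. Their median depth was 14552 UMIs in library C and 13728.5 in library D, against 10321.5 and 11111 in 0-UMI nuclei. Mitochondrial genes took 6.57% (C) and 5.79% (D) of their UMIs, against 6.50% and 6.19% in 0-UMI nuclei. A deeper nucleus reaches 5 Sox9 UMIs more easily, so depth is part of how the nuclei were chosen. With the 0-UMI nuclei weighted to the depth of the Sox9-high nuclei, 232 and 181 of the genes called higher and lower below were still called. Of the 311 nuclei, 6 carried a barcode that also occurs in another library.

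A gene was compared where the Sox9-high nuclei of each library would hold at least 10 of its UMIs if it were spread over both groups in proportion to depth (expected UMIs), and it was called higher or lower where it differed at least 2-fold in the same direction in both libraries. By this rule 245 of 10409 genes (2.35%) were higher in Sox9-high nuclei and 203 (1.95%) were lower. A gene rare in 0-UMI nuclei can pass this limit through its UMIs in Sox9-high nuclei, as Col9a3, Ctse, Vim and Wfdc18 did. In library D, Plat, Pdzrn3, Fam89a, Pthlh and Plscr2 did so too. The limit thus lets in genes that are high in Sox9-high nuclei, and the count of genes called higher is a description only. The median log2 fold over all genes compared was 0.0019 in library C and -0.016 in library D. The genes called higher included the cartilage genes Sox6 and Col9a3 and the secreted products Wfdc18 and Plat, and those called lower included 10 genes of the ATI list.

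**Figure D1:**
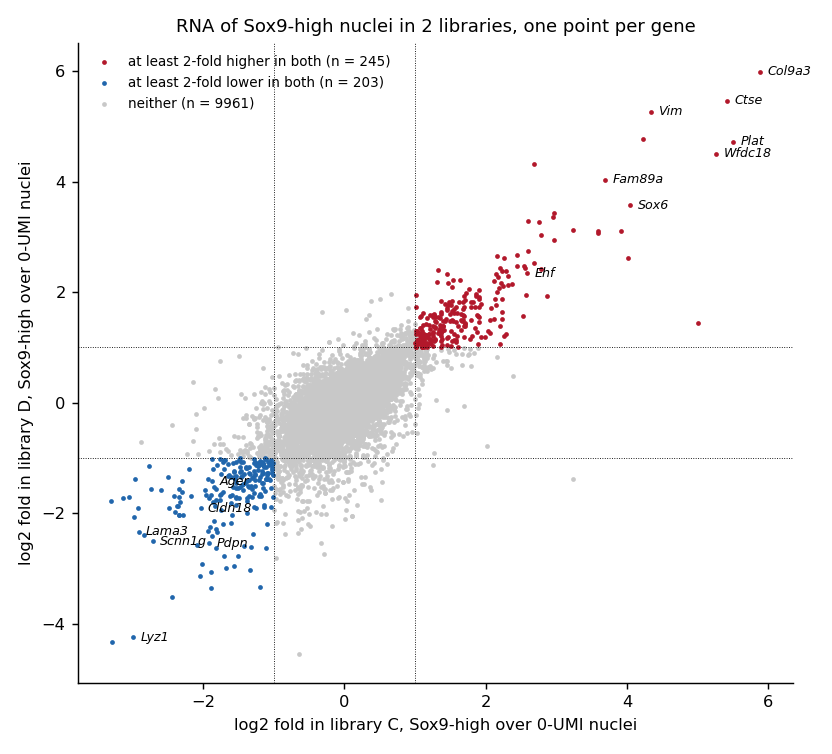
Each point is 1 of 10409 genes, with its log2 fold (Sox9-high over 0-UMI nuclei) in library C on the x axis and in library D on the y axis; dotted lines mark 2-fold. Red points are the 245 genes called higher, led by Col9a3, and blue points the 203 called lower.

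Sox6, whose protein works beside SOX9 in cartilage, stood at 2.34 (C) and 2.25 (D) UMIs per 10000 in Sox9-high nuclei, against 0.142 and 0.189 in 0-UMI nuclei, a fold of 16.5 (14.5 to 18.8) in library C and 11.9 (10.2 to 13.9) in library D. Sox6 had a UMI in 55.8% and 55.3% of Sox9-high nuclei. With every nucleus thinned to 1000 UMIs, the shares were 22.8% (C) and 21.1% (D) in Sox9-high nuclei, against 1.18% and 1.75% in 0-UMI nuclei. In libraries A and B combined Sox6 stood at 0.0443 per 10000. The Sox6 signal was therefore well above its level in the comparison nuclei, in both libraries and at equal depth. Sox6 is a marker proposed from earlier results of the same nuclei, so its height is no independent evidence.

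Col9a3, which encodes a chain of the cartilage collagen IX, showed the highest smaller-of-2-libraries fold of all genes called. Its levels were 0.601 (C) and 0.507 (D) per 10000 in Sox9-high nuclei, against 0.0102 and 0.00802 in 0-UMI nuclei, which is 59.1-fold (38.8 to 93.7) and 63.3-fold (35.2 to 123). A Col9a3 UMI was seen in 20.8% (C) and 18.4% (D) of Sox9-high nuclei, and in 5.08% and 5.26% with every nucleus thinned to 1000 UMIs. At this level a nucleus with no UMI is not shown to lack the RNA. Of the 32 genes on the list of cartilage matrix and chondrocyte genes, 9 had enough expected UMIs to be compared. Of these, 3 were called higher (Col9a3, Sox6 and Mia, a small secreted cartilage protein), beside 2.35% of all genes, and 0 lower, beside 1.95%. Of the UMIs that let Col9a3 pass, 180 (C) and 90 (D) were in Sox9-high nuclei, against 25 and 13 in 0-UMI nuclei, so it passed through the group where it is high. Col9a3 and Sox6 are also markers proposed from these same nuclei, so the count of 3 is a description only. The median log2 fold of the 9 was 0.11 in library C and 0.30 in library D. Sox5, the other SOX partner in cartilage, was not called, at 0.749-fold and 0.756-fold. Fgfr3, a receptor of growth plate cartilage, stood at 0.374-fold in library C and 0.548-fold in library D.

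Other cartilage genes had too few UMIs over both groups to pass the limit on expected UMIs and are described by their UMIs. Col27a1, a fibrillar collagen gene of cartilage, had 171 (C) and 75 (D) UMIs in Sox9-high nuclei, against 20 and 21 in the far more numerous 0-UMI nuclei. Col2a1, the main collagen of cartilage, had 48 (C) and 57 (D) UMIs in Sox9-high nuclei, against 12 and 5 in 0-UMI nuclei, but 1 nucleus of library C held 45.8% of the UMIs of its group. Chst11, a chondroitin sulfotransferase gene, had 51 (C) and 27 (D) UMIs in Sox9-high nuclei, against 9 and 1 in 0-UMI nuclei. Other members stayed at or near 0: Acan, the gene of the cartilage proteoglycan aggrecan, had 0 UMIs in Sox9-high nuclei of both libraries, as had Matn1, Ucma and Prg4.

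The other genes that had been named as markers of these nuclei code for parts of the matrix, a matrix receptor and a secreted protein. Lama4, a laminin chain found in vessel and muscle basement membranes, was below the limit on expected UMIs and stood at 0.505 (C) and 0.445 (D) per 10000 in Sox9-high nuclei, against 0.00651 and 0.00617 in 0-UMI nuclei. Itgb8, an integrin chain that activates TGF-beta, was below the same limit and stood at 0.2 (C) and 0.231 (D), against 0.00611 and 0.00432 in 0-UMI nuclei. Wfdc18, a small secreted protein with a protease inhibitor fold, was called higher, at 0.939 (C) and 0.755 (D) against 0.0244 and 0.0333 in 0-UMI nuclei. These markers were proposed from earlier results of the same nuclei, so their height is no independent evidence.

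Promoters were searched for the 6-letter SOX motifs ACAATG and ACAAAG on both strands, in windows of 250 bases before to 50 after each start that RefSeq gives for a gene in GRCm38.p6. A match is a description of the letters and not a bound site. Of 182 genes with higher RNA that had a promoter in the table, 60 (33.0%) held at least 1 motif, against 38 of 147 genes with lower RNA (25.9%), 22.6% of all genes compared and 31.7% of all genes in the table. Single ATAC peaks were called more or less open in Sox9-high nuclei at 2-fold in both libraries with at least 10 expected counts, by which 1519 of 55265 peaks (2.75%) were more open and 858 (1.55%) less. Of 178 genes with higher RNA whose promoter lay under a peak, 4 had such a peak at least 2-fold more open in both libraries. The limit on expected counts was not applied to these 4, which were Wfdc18, Sox6, Grip1 and Cald1, and all 4 held a motif. Of these peaks, the one at Cald1 had enough expected counts to be called. The share over all genes with a promoter under a peak is not given here, so the 4 and their motifs are a description only. The promoters of Wfdc18 and Sox6 are shown as markers of these nuclei, and that of Cald1 as the one with a called peak. Capitals mark the motifs. The Sox6 window lies at an internal start, within the gene (chr7:115470872-116040776).
Wfdc18 promoter, chr11:83708754-83709053, plus strand: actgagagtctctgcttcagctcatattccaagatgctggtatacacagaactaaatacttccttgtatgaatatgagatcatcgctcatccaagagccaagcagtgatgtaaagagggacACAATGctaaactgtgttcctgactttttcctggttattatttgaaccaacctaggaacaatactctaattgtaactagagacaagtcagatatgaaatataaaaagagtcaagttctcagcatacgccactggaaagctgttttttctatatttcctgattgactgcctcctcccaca
Sox6 promoter, chr7:115824661-115824960, minus strand: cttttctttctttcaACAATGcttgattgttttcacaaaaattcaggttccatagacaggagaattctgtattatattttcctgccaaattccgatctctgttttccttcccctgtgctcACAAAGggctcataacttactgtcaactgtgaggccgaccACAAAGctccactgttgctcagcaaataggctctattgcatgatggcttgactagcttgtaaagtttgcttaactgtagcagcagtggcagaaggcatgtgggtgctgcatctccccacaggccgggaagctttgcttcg
Cald1 promoter, chr6:34598254-34598553, plus strand: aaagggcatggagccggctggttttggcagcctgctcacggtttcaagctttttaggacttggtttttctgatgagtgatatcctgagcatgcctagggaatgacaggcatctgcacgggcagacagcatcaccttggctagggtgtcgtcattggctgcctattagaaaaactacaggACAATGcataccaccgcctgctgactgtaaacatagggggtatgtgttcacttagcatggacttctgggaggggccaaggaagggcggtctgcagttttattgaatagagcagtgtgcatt

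In Wfdc18 the 1 motif began 129 bases before the start, and the peak over it had 39 (C) and 38 (D) counts in Sox9-high nuclei, against 13 and 8 in 0-UMI nuclei, a fold of 24.0 and 42.9. In Sox6 the 3 motifs began 235, 130 and 90 bases before this internal start, and the peak had 38 (C) and 22 (D) counts in Sox9-high nuclei, against 12 and 13, a fold of 25.3 and 15.3. In Cald1, which encodes the actin-binding protein caldesmon, the motif began 71 bases before the start and the peak had 46 (C) and 37 (D) counts, against 96 and 132. The RNA of Cald1 stood at 4.17 (C) and 4.63 (D) per 10000 in Sox9-high nuclei, against 1.46 and 1.64 in 0-UMI nuclei. The counts at Wfdc18 and Sox6 are small, and both peaks were under the limit of 10 expected counts, while the peak at Cald1 was called.

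How many of the 5 markers besides Sox9 (Sox6, Col9a3, Lama4, Itgb8 and Wfdc18) a single nucleus held varied widely. In library C 71 of 197 Sox9-high nuclei (36.0%) and in library D 43 of 114 (37.7%) had a UMI of none of them. At least 3 of the 5 were seen in 51 nuclei (25.9%) of library C and 27 (23.7%) of library D, against 4 (0.188%) and 2 (0.152%) of the 0-UMI nuclei. All 5 were present in 6 and 4 Sox9-high nuclei and in 0 of the 0-UMI nuclei of either library. Reaching 5 Sox9 UMIs thus did not always come with a UMI of another marker, but a nucleus with no UMI is not shown to lack the RNA. The markers were proposed from these same nuclei and the shares were not taken at equal depth, so they are a description only.

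Nuclei with more of the markers carried less surfactant RNA. Where 3 to 5 markers were present, the genes of the ATII list summed to 69.2 (C) and 30.7 (D) UMIs per 10000. With 1 or 2 markers they summed to 225 and 94.3, and with none to 465 and 739. The order was the same in both libraries. The transitional keratin list ran the other way, with 244 (C) and 272 (D) UMIs per 10000 in nuclei with 3 to 5 markers, 197 and 217 with 1 or 2, and 148 and 127 with none. The median Sox9 count was 11 (C) and 15 (D) in nuclei with 3 to 5 markers and 7 in both libraries in nuclei with none. Their median depths were 13866 (C) and 13704 (D) UMIs with 3 to 5 markers and 15735 and 15663 with none, so the nuclei with none were the deeper of these.

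**Figure D2:**
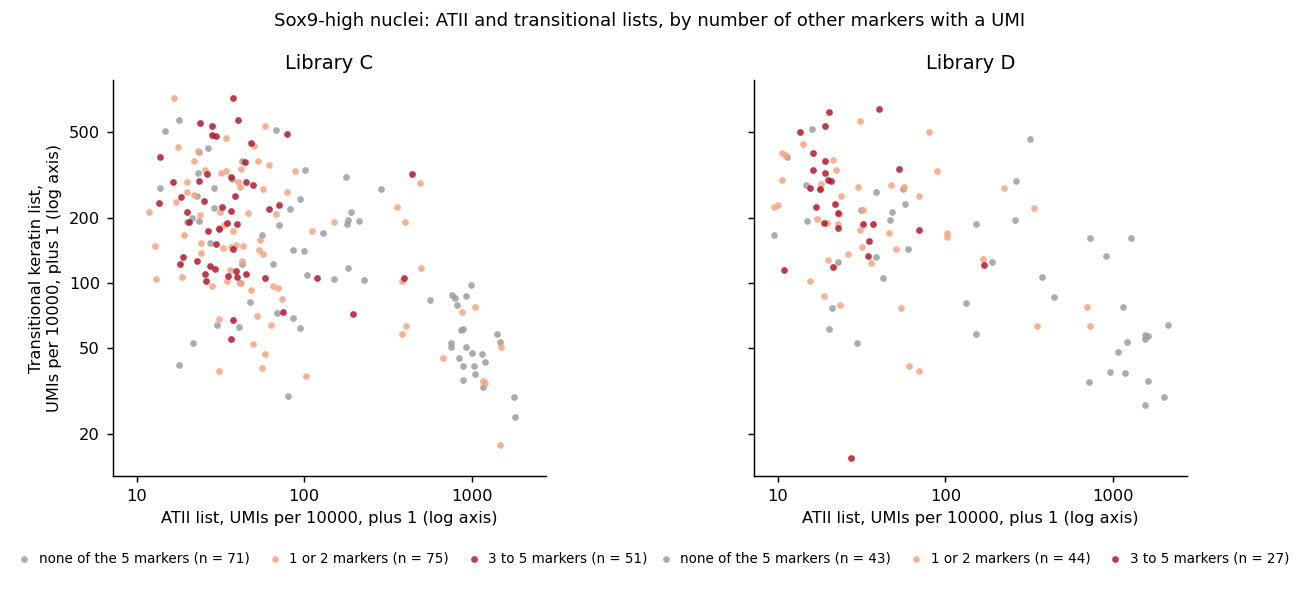
Each point is 1 Sox9-high nucleus of library C (left) or D (right), with the summed UMIs per 10000, plus 1, of the ATII list on the x axis and of the transitional keratin list on the y axis, both on log axes; colours give the number of the 5 other markers with a UMI. Most of the 51 and 27 nuclei with 3 to 5 markers (dark red) lie at the upper left, and a separate cloud at the lower right is mostly of nuclei with none (grey).

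Each nucleus was also put into 1 of 3 classes by the list that was highest in it relative to all nuclei of both libraries. The transitional list was highest in 66.0% (C) and 70.2% (D) of Sox9-high nuclei, against 26.2% and 30.6% of 0-UMI nuclei. The ATII list was highest in 25.4% (C) and 19.3% (D) of Sox9-high nuclei, against 36.9% and 32.6% of 0-UMI nuclei. The ATI list was highest in 8.63% (C) and 10.5% (D), against 36.9% and 36.8% of 0-UMI nuclei. The transitional class thus held the majority of Sox9-high nuclei in both libraries, and the ATI class the fewest. The classes are cuts of a score and not cell types. The genes of the transitional list did not move as 1 block, however. Of 22 compared, 3 were called higher (Lgals3, Fhl2 and Clu), beside 2.35% of all genes, and 0 lower, beside 1.95%. Krt8, the keratin for which the state is known, was at 13.5 (C) and 15.5 (D) per 10000 in Sox9-high nuclei, against 12.8 and 15.2 in 0-UMI nuclei. Clu, a secreted chaperone made by injured epithelium, stood at 83.1 (C) and 66.1 (D), against 30.4 and 29.4. Without Clu the list summed to 108 (C) and 129 (D) per 10000 in Sox9-high nuclei, against 96.3 and 116 in 0-UMI nuclei, so most of the higher sum of this list was Clu.

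The ATI list was the one with the most genes called lower. Of its 25 members 22 were compared, 10 were called lower, beside 1.95% of all genes, and 0 higher. Of the 22, 20 were below 1-fold in both libraries, against 3924 of 10409 genes over all. Their median log2 fold was -1.30 in library C and -0.99 in library D. Cldn18, the tight junction claudin of alveolar cells, stood at 3.25 (C) and 3.62 (D) per 10000 in Sox9-high nuclei, against 13.3 and 13.6 in 0-UMI nuclei. Ager, the receptor RAGE that ATI cells carry in bulk, stood at 7.56 (C) and 11 (D), against 27.7 and 29.3. Hopx, a homeodomain protein of ATI cells, was at 2.19 (C) and 2.42 (D), against 5.07 and 5.25. The water channel gene Aqp5 was at 3.91 (C) and 5.58 (D), against 10.3 and 12.4. For each of these 4 genes the counting intervals of the groups did not overlap in either library. The share of all genes compared without such overlap is not given here, so this is a description only. Members that were not called included Vegfa, at 0.677-fold (C) and 0.732-fold (D), Cav2, at 0.87-fold and 0.977-fold, and Timp3, at 0.975-fold and 1.32-fold.

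**Figure D3:**
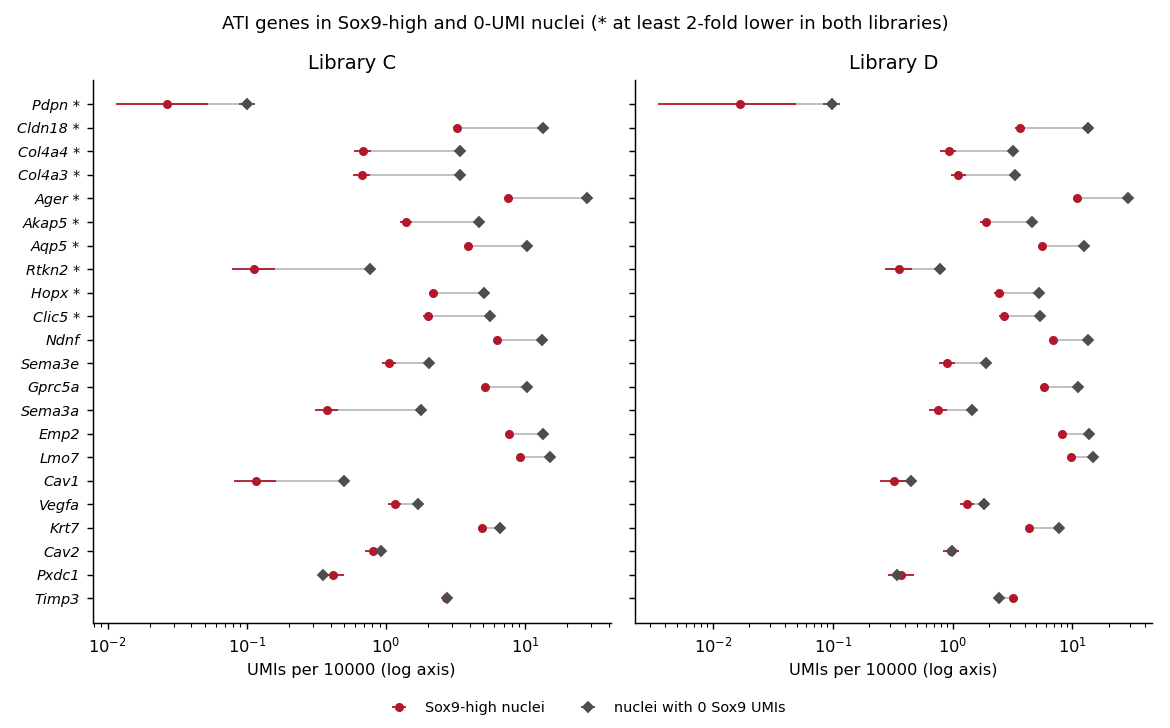
Levels of the 22 ATI genes compared, in UMIs per 10000 on a log axis, in library C (left) and D (right), with exact Poisson 95% intervals; red circles are Sox9-high nuclei and grey diamonds 0-UMI nuclei. The 10 genes marked with a star, from Pdpn to Clic5, lie at least 2-fold lower in Sox9-high nuclei in both libraries.

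A sodium channel gene and 3 genes of the laminin and basement membrane list were also called lower. Scnn1g, a subunit of the sodium channel that clears fluid from the airspace, stood at 0.124 (C) and 0.135 (D) per 10000 in Sox9-high nuclei, against 0.809 and 0.765 in 0-UMI nuclei, a fold of 0.153 (0.107 to 0.211) and 0.177 (0.113 to 0.265). Lama3, the alpha chain of the epithelial laminin 332, stood at 0.13 (C) and 0.192 (D), against 0.98 and 0.964, the opposite direction to Lama4. Col4a3 and Col4a4 code for collagen IV chains of the alveolar membrane. Col4a4 stood at 0.682 (C) and 0.925 (D), against 3.41 and 3.2 in 0-UMI nuclei, and Col4a3 at 0.672 and 1.12, against 3.42 and 3.3. Of 14 laminin and basement membrane genes compared, 3 were called lower (Lama3, Col4a3 and Col4a4), beside 1.95% of all genes, and 0 higher. Col4a1 and Col4a2, the common collagen IV chains, stood between 0.78-fold and 0.848-fold and were not called. The rest of the lowest 12 genes by the naming rule were Fbln5, Sec14l3, Mmp11, Tmem37, Gm20559, Tns1, Cox6a2 and Phactr1, with folds between 0.132 and 0.303.

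Gene by gene, the ATII list moved less than the ATI list, but its sum and its level in the median nucleus did not. Of 24 genes compared, 3 were called lower (Napsa, Lyz1 and Chil1), beside 1.95% of all genes, and 0 higher. Of the 24, 23 were below 1-fold in both libraries, against 3924 of 10409 genes over all, and the median log2 fold was -0.74 in library C and -0.64 in library D. Sftpc, the surfactant protein C gene and the most abundant of the list, was at 197 (C) and 244 (D) per 10000 in Sox9-high nuclei, against 444 and 468 in 0-UMI nuclei. Lamp3 and Abca3, both of the lamellar bodies that store surfactant, stood at 0.689-fold and 0.69-fold (Lamp3) and 0.773-fold and 0.717-fold (Abca3). The summed ATII list stood at 0.472-fold (C) and 0.545-fold (D), and the summed ATI list at 0.43-fold and 0.488-fold. The sums hide the spread among single nuclei. The quartiles of single Sox9-high nuclei were 27.3 and 151 UMIs per 10000 of the ATII list in library C and 19 and 164 in library D. Those of 0-UMI nuclei were 58.0 and 949 (C) and 45.1 and 1070.4 (D). The median Sox9-high nucleus held 44.2 (C) and 34.5 (D) of the ATII list, against 218 and 177 in 0-UMI nuclei. For the ATI list the medians were 38.8 (C) and 47.0 (D), against 120 and 132.

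Besides Sox6 and Wfdc18, the genes with the largest folds among those with a UMI in at least 20% of Sox9-high nuclei in each library had diverse roles. Plat, the tissue plasminogen activator, stood at 1.72 (C) and 1.17 (D) per 10000 in Sox9-high nuclei, against 0.0379 and 0.0444 in 0-UMI nuclei, a fold of 45.4 (36.3 to 57.2) and 26.4 (20.1 to 35). Plat had a UMI in 46.2% and 36.8% of Sox9-high nuclei, a larger share than Col9a3 or Wfdc18. Pdzrn3, a ubiquitin ligase, stood at 18.7-fold (C) and 27.1-fold (D), and Fam89a at 12.9-fold and 16.4-fold. Tubb2b, a beta tubulin, was at 2.37 (C) and 1.96 (D) per 10000, against 0.197 and 0.227. Pthlh, the parathyroid hormone-related protein that ATII cells and chondrocytes secrete, was at 0.401 (C) and 0.457 (D), against 0.0334 and 0.0543. Plod2, a collagen lysyl hydroxylase, was at 1.29 (C) and 1.17 (D), against 0.164 and 0.152. The other genes named by that rule were Pigr, Itpr2, Plscr2 and Cers6, with folds between 6.88 and 15.1. Pigr is the receptor that carries immunoglobulin across epithelia, Itpr2 a calcium release channel, Plscr2 a scramblase and Cers6 a ceramide synthase. In library D, Plat, Pdzrn3, Fam89a, Pthlh and Plscr2 passed the limit on expected UMIs through their UMIs in Sox9-high nuclei. The limit of 20% also used the Sox9-high nuclei, so the ranks of these genes are a description only.

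Tip progenitor genes did not move together. Of 18 compared, 3 were called higher (Clu, Ctse and Wfdc18), beside 2.35% of all genes, and 2 lower (Bmp4 and Shh), beside 1.95%. Ctse and Wfdc18 passed the limit on expected UMIs through their UMIs in Sox9-high nuclei. Wfdc18 is also a marker proposed from these nuclei, so the count of 3 is a description only. The median log2 fold of the 18 was -0.15 in library C and -0.35 in library D. Ctse, a protease known from the stomach and also on the gut list, stood at 0.695 (C) and 0.953 (D) per 10000 in Sox9-high nuclei, against 0.0163 and 0.0216 in 0-UMI nuclei. Bmp4, a signal of the embryonic tip, stood at 0.484 (C) and 0.451 (D), against 1.17 and 1.28. Shh, the hedgehog ligand of lung epithelium, stood at 0.0869 (C) and 0.0733 (D), against 0.243 and 0.242. Id2, a tip regulator, was at 1.15-fold (C) and 1.01-fold (D), and Etv5, a target of FGF signals, at 0.721-fold and 0.673-fold.

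Epithelial identity genes stayed on in the Sox9-high nuclei. Epcam, an epithelial adhesion molecule, stood at 5.06 (C) and 5.4 (D) per 10000, against 2.43 and 2.81 in 0-UMI nuclei, and Cdh1, E-cadherin, at 4.93 and 4.99, against 4.32 and 4.27. Nkx2-1, the lung lineage factor, stood at 2.88 (C) and 2.77 (D), against 3.9 and 4.16. Of the 3, the lowest share of Sox9-high nuclei with a UMI was 81.6%, for Nkx2-1 in library D. Ehf, an epithelial ETS factor, was the 1 of 24 lung transcription factor genes called higher, at 3.62 (C) and 3.15 (D), against 0.603 and 0.623, and Hopx the 1 called lower, counts near those of 2.35% and 1.95% over all genes. Vim, the intermediate filament of mesenchyme, was called higher at 0.411 (C) and 0.851 (D), against 0.0204 and 0.0222, but 1 nucleus held 25.2% (C) and 33.8% (D) of its UMIs. Of the 6 genes of epithelial to mesenchymal transition compared, Vim was the 1 called higher, and Sparc, a matrix protein, was among those called lower.

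Most defining markers of other cell types were at or near 0, with Pecam1 in library C as an exception. Of the 17 mesenchymal genes none reached the limit on expected UMIs, and the list summed to 0.0902 UMIs per 10000 in Sox9-high nuclei of both libraries, against 0.0456 (C) and 0.0826 (D) in 0-UMI nuclei. Of the 17, 11 (C) and 12 (D) had 0 UMIs in Sox9-high nuclei, with Col1a2, Pdgfrb, Col3a1 and Lum at 0 in both libraries. The others had some UMIs, among them Dcn with 5, all in 1 nucleus of library C. The immune marker Ptprc and the glial marker Sox10 each had 0 UMIs there. Pecam1, an endothelial adhesion molecule, had 32 (C) and 3 (D) UMIs in Sox9-high nuclei, against 47 and 45 in 0-UMI nuclei. Of the 10 endothelial genes, 4 had 0 UMIs in Sox9-high nuclei of each library, and Cdh5, Kdr and Cldn5 had 0 in both. The endothelial list summed to 0.19 (C) and 0.135 (D) UMIs per 10000 in Sox9-high nuclei, against 0.102 and 0.103 in 0-UMI nuclei. Lyz2, on the immune list but also made by ATII cells, had 505 (C) and 437 (D) UMIs, against 6864 and 4360 in 0-UMI nuclei. The part of these markers in the results was not tested. Airway genes called lower were the club cell genes Scgb1a1 and Cbr2, with Cbr2 at 0.0902 per 10000 in both libraries, against 0.886 (C) and 1.8 (D), and airway genes called higher were Pigr and Ltf.

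The signalling lists are given by their calls, beside 2.35% of all genes called higher and 1.95% called lower. In the WNT list 1 of 14 genes compared was called higher (Lgr4, a receptor of R-spondins, at 3.21-fold and 2.81-fold) and 3 were called lower (Wnt7a, a ligand, Nkd1, a feedback inhibitor, and Fzd2, a receptor). In the BMP and TGF-beta list 1 of 20 was called higher (Bambi, a decoy receptor) and 3 lower (Bmp4 and Bmp5, both ligands, and Smad9). In the hedgehog list 1 of 4 was called lower, the ligand Shh. The FGF response list had 0 of 10 called in either direction, the Notch list 0 of 7, the lipid synthesis list 0 of 22 and the cell cycle list 0 of 10. Of the YAP target list 2 of 14 were called higher, Amotl1 and F3, the clotting initiator tissue factor, which stood at 6.73 (C) and 11.8 (D) per 10000, against 1.55 and 2.56. In the integrin list 2 of 11 were called higher, Itga6 (2.14-fold and 2.03-fold) and Itgb4 (3.25-fold and 2.95-fold), the 2 chains that together bind laminin in hemidesmosomes. In the AP-1 and stress list Atf3 was called higher, and 14 of 16 genes were above 1-fold in both libraries, against 3768 of 10409 genes over all. Their median log2 fold was 0.93 in library C and 0.72 in library D, and Jun stood at 1.91-fold and 1.9-fold, just under the limit for a call. Of 7 MHC class II genes compared, 2 were called lower, H2-Aa, an antigen-presenting chain, and Ciita, its activator. Cdkn2a and Cdkn2b, inhibitors of the cell cycle, were called lower and Gdf15, a stress cytokine, higher among 19 genes of the p53 list.

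Some levels followed the Sox9 count below and above the limit of 5. Sox6 stood at 0.142, 0.299, 0.669, 1.57, 3.21 and 4.04 UMIs per 10000 in library C in nuclei with 0, 1 to 2, 3 to 4, 5 to 9, 10 to 19 and 20 or more Sox9 UMIs. In library D the same bins held 0.189, 0.393, 0.641, 1.46, 2.34 and 4.23. Each bin was above the one before it in both libraries. Nuclei with exactly 5 Sox9 UMIs stood at 0.962 (C) and 0.607 (D), against 0.94 and 0.484 in nuclei with exactly 4. Cldn18 ran down in the same bins, at 13.3, 9.67, 8.18, 3.98, 2.64 and 1.28 in library C and 13.6, 9.74, 6.28, 5.73, 2.36 and 0.394 in library D. Lama3 had no steady order above the limit, at 0.121, 0.175 and 0.0917 in the upper 3 bins of library C. Col9a3 did not follow the count in order, since in library C its 10 to 19 bin (1.01) was above its 20 or more bin (0.55), and in library D its 10 to 19 bin (0.191) was below its 5 to 9 bin (0.392). Nuclei with 1 to 4 Sox9 UMIs were thus intermediate for Sox6 and Cldn18. The bins differ in depth too, with medians of 10321.5 and 17058 UMIs in the lowest and the highest bin of library C and 11111 and 17050 in those of library D.

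**Figure D4:**
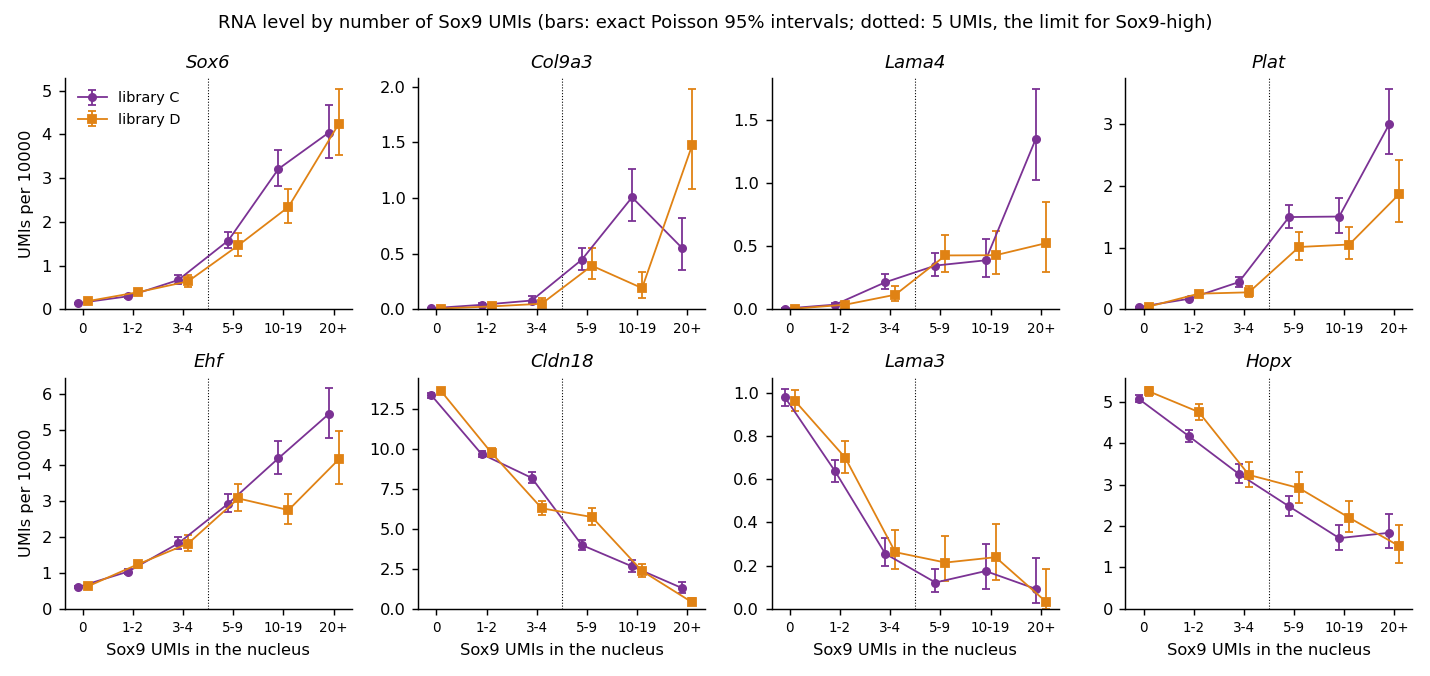
RNA levels in UMIs per 10000 (y axes, from 0) of 8 genes in nuclei of library C (circles) and D (squares), by the number of Sox9 UMIs in the nucleus (x axes); bars are exact Poisson 95% intervals and the dotted line marks the limit of 5. Sox6 goes up and Cldn18 down at every step in both libraries, while Ehf, Lama3, Hopx and Col9a3 each break the order in at least 1 step above the limit.

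Several of the differences were also present between nuclei of the same class, though not all. Among nuclei with the transitional list highest (130 Sox9-high and 556 0-UMI nuclei in library C, 80 and 402 in library D), Sox6 stood at 3.37 (C) and 2.99 (D) per 10000 in Sox9-high nuclei, against 0.251 and 0.388 in 0-UMI nuclei. Cldn18 stood there at 1.8 (C) and 1.57 (D), against 11.8 and 12, and Ager at 4.19 and 6.54, against 19.4 and 21.6. Cldn18, Ager and Pdpn are on the ATI list, which helped to set the classes and can still vary within a class. Their values by class are therefore a description only. Among nuclei with the ATII list highest, Plat stood at 38.6-fold (C) and 29.7-fold (D) and Cldn18 at 0.496-fold and 0.498-fold. Among nuclei with the ATI list highest there were 17 and 12 Sox9-high nuclei, where Ager stood at 0.624-fold (C) and 0.884-fold (D) and Sox6 at 5.23-fold and 5.69-fold. In that class Tubb2b had 13 (C) and 2 (D) UMIs in Sox9-high nuclei, against 154 and 120 in 0-UMI nuclei, which is higher per 10000 in library C and not in library D. There 2610035D17Rik stood at 1.55-fold (0.985 to 2.33) and 1.13-fold (0.597 to 1.96). Pdpn had 3 (C) and 1 (D) UMIs in Sox9-high nuclei of the class, too few to give a direction. Wfdc18 and Pigr each had 0 UMIs in the 12 Sox9-high nuclei of library D, against 6 each in 0-UMI nuclei, also too few to give a direction. With the 0-UMI nuclei weighted to the class mix of the Sox9-high nuclei, 162 of the genes called higher and 120 of those called lower were still called.

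Open chromatin was read in the same nuclei, as counts in peaks over each gene and the 2000 bp on either side. A gene with at least 30 expected counts in the Sox9-high nuclei of each library was called at 1.5-fold in both libraries, and by this rule 154 of 15270 genes (1.01%) were more accessible in Sox9-high nuclei and 75 (0.491%) less. RNA and chromatin moved the same way where both were called. Of 233 genes with higher RNA that could be compared, 11 were more accessible and 0 less, with median folds of 1.11 (C) and 1.14 (D). Of 184 genes with lower RNA, 0 were more accessible and 7 less, with medians of 0.817 (C) and 0.844 (D). Among the 9613 genes with neither RNA call, 14 were more accessible and 12 less, at medians of 0.957 (C) and 0.962 (D). Most genes with a call in RNA had none in chromatin at this threshold. Genes called in both were Sox6 (2.33-fold in library C and 2.39-fold in library D), Plat (2.05 and 2.59), Basp1, a membrane-bound growth cone protein (2.86 and 1.89), Vim (1.71 and 2.08), Trib2, Palld, Anxa6, Krt23, Chmp4c, Cda and 4931406P16Rik for higher, and Shh (0.537 and 0.445), Nkd1, Dynlrb2, Esam, Msl3l2, Sec14l3 and Stk26 for lower. Of 24 ATI genes compared 0 were called in either direction, with medians of 0.849 (C) and 0.85 (D), and 16 were below 1-fold in both libraries. Of the 9613 genes with neither RNA call, 4465 (46.4%) were also below 1-fold in both. Sftpc was the 1 of 21 ATII genes called less accessible, at 0.596-fold (C) and 0.614-fold (D).

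At the Sox9 gene (chromosome 11, 112782210 to 112787757, GRCm38.p6) all 3 peaks were more open in Sox9-high nuclei, and the gene as a whole stood at 4.17-fold (3.79 to 4.58) in library C and 4.21-fold (3.74 to 4.72) in library D. Counting each peak at most once per nucleus gave 2.41-fold (C) and 2.62-fold (D). The virus carried a copy of Sox9, and counts over the gene cannot tell that copy from the chromosomal gene, in ATAC or in RNA. Of 56 peaks outside the gene within 500 kb, 28 could be compared, 2 were more open and 0 less. One of them, at chr11:113221062-113221978, had 65 (C) and 49 (D) counts in Sox9-high nuclei, against 47 and 57 in 0-UMI nuclei, a fold of 11.1 (7.48 to 16.4) and 7.76 (5.18 to 11.6). The other, at chr11:113183930-113184801, lies within the long noncoding RNA gene 2610035D17Rik and stood at 3.32-fold (C) and 2.92-fold (D). The RNA of 2610035D17Rik was itself called higher, at 3.1 (C) and 2.53 (D) per 10000 in Sox9-high nuclei, against 0.697 and 0.633 in 0-UMI nuclei. A peak 70.0 kb before the gene, at chr11:112711242-112712171 and under the limit on expected counts, had 62 (C) and 17 (D) counts in Sox9-high nuclei, against 16 and 11 in 0-UMI nuclei.

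**Figure D5:**
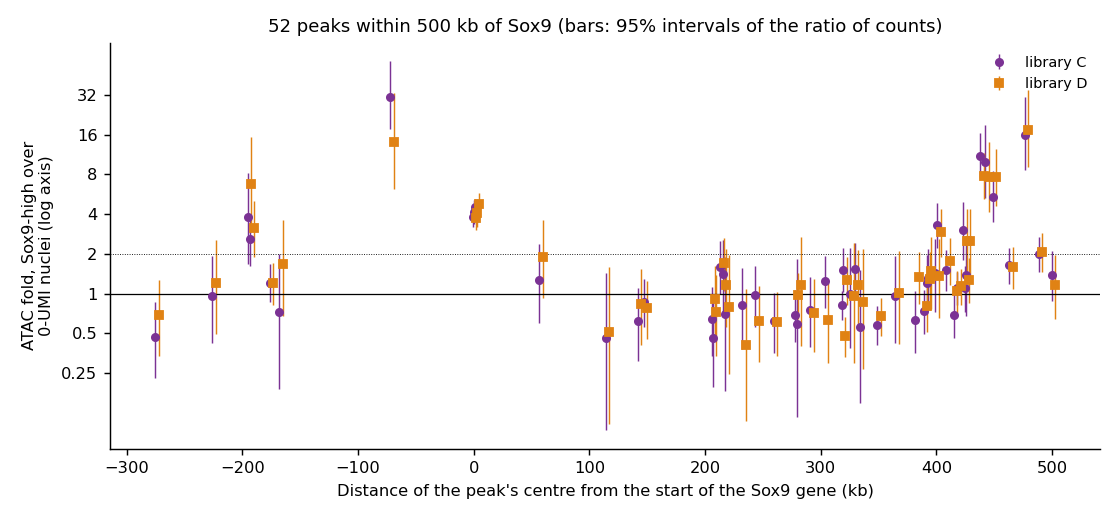
ATAC fold (Sox9-high over 0-UMI nuclei, log y axis) of 52 peaks with at least 3 counts in every group, by distance of the peak's centre from the start of the Sox9 gene in kb (x axis), in library C (circles) and D (squares), with 95% intervals of the ratio. Most peaks lie near 1, the 3 peaks over the gene near 4, and the highest folds are at the peak 70.0 kb before the gene and in a group of peaks over 400 kb after it.

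Among the other markers, the 2 peaks at Col9a3 together had 82 (C) and 69 (D) counts in Sox9-high nuclei, against 96 and 50 in 0-UMI nuclei, a fold of 6.83 (5.02 to 9.26) and 12.5 (8.53 to 18.3). With peaks up to 10000 bp from the gene, Col9a3 stood at 1.86-fold (C) and 2.06-fold (D). Lama4 stood at 5.64-fold (C) and 3.84-fold (D) and Itgb8 at 2.17-fold and 2.53-fold; of these 3 genes, Itgb8 reached the limit on expected counts and was called. Pdzrn3, whose RNA was far higher, was not more accessible over the gene, at 0.944-fold (0.826 to 1.08) and 0.897-fold (0.765 to 1.05).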

How the data were processed

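RNA and ATAC were read from the same nuclei, and the authors deposited 1 pooled matrix of each, whose barcodes carry 1 of 4 library prefixes. The deposited values are raw counts, UMIs per gene and counts per peak. Tools listed per the submitters' processing notes are Cell Ranger (6.0.1), Signac (1.10.0) and Seurat (4.3.0), beside the build names mm10 and GRCm38; what each was used for is not stated there, and neither is the peak caller or the filter on nuclei. Multiplexing tables that name other samples were not used here. Since prefixes cannot be matched to labelled samples here, the matrix counts as 1 sample and no test was run. Promoters on chromosome 18 were left out of the promoter counts.

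Nuclei under 1000 UMIs (56 of 7224) were left out. Counts were summed per library and group and divided by total counts; folds are ratios of these levels, with counts under 3 set to 3, and exact conditional 95% intervals. A gene's peaks were those within 2000 bp of it, by RefSeq GRCm38.p6, which placed 26656 of 32285 genes. Of 615 genes on 37 lists, 613 were in the matrix. The nuclei and lists were chosen with earlier results of these data known. Scrublet (in scanpy) marked 5 of 7168 nuclei (0.0698%) and is taken not to have worked, so no doublets were removed. In all, 20 barcodes occur in more than 1 library.

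The genes named were the 6 markers, the 12 with the largest smaller-of-2-libraries fold and a UMI in at least 20% of Sox9-high nuclei in each library, the 12 with the lowest larger fold and a UMI in at least 20% of 0-UMI nuclei, up to 4 members per list by change and 2 by abundance, and defining markers of cell types. Further genes, among them Ctse, Vim, Ehf, F3, Cald1, Basp1 and 2610035D17Rik, were picked with their values in view. The steps were tested on simulated data. Alternatives changed the Sox9 limit, the comparison nuclei, weights, scaling, filters and folds. Python 3.11.15, numpy 2.4.6, pandas 2.3.3, scipy 1.17.1, scanpy 1.11.5 and matplotlib 3.10.9 were used. Some genes on the lists are not reported here.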

Additional observations from a re-analysis of the deposited data

Results flagged for a closer look

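Libraries A and B, which no comparison uses, held 20 and 14 Sox9 UMIs, above the floor of 3 to which lower counts are set in folds.

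Some listed genes moved in opposite directions in library C and library D, with counting intervals on either side of 1; these differences between libraries were not tested. Hspa1a, a heat shock gene, stood at 4.06-fold in library C and 0.58-fold in library D, and Cdkn1c, an inhibitor of the cell cycle, at 0.619-fold in C and 1.43-fold in D. Ldha, a glycolytic enzyme, stood at 1.07-fold in C and 0.813-fold in D, Col4a5 at 0.924-fold in C and 1.14-fold in D, and the mitochondrial gene mt-Co2 at 1.03-fold in C and 0.923-fold in D.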

How the results depend on the processing

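Each RNA count was recomputed under 20 alternatives and the accessibility count under 22; no gene called in 1 direction was called in the other under any RNA alternative. The alternative without the nucleus with the most Sox9 UMIs, and all alternatives for the ATI list, were chosen after seeing the data. With a lower fold threshold, 614 genes were higher, 618 lower, 577 more accessible and 16 ATI genes lower; with a higher one, 74, 56, 22 and 3. With a looser filter on low counts, 388 genes were higher, 7 cartilage genes higher and 372 genes more accessible; with a stricter one, 146 genes were higher, 124 lower, 1 cartilage gene higher and 15 genes more accessible. With at least 10 Sox9 UMIs, 353 genes were lower, 1 cartilage gene higher and 100 genes more accessible, and with at least 3, 103 were lower. With at least 5 Sox9 UMIs per 10000, 366 genes were lower and 1 cartilage gene higher, and with no airway limit 1 cartilage gene was higher. With each peak counted as 0 or 1 per nucleus, 102 genes were more accessible. Leaving out library C or D in turn, which leaves calls in 1 library alone, gave 356 to 439 genes higher, 492 to 496 lower, 3 to 5 cartilage genes higher, 11 to 14 ATI genes lower and 300 to 324 genes more accessible. Filters and fold thresholds change the number of genes that can be called by construction; for the other alternatives the cause was not tested. No paired analysis was possible because no barcode prefix is tied to a sample or replicate number. Depth limits the rare genes: 23 of 32 cartilage genes had too few expected UMIs to be compared.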
